A study of Homo sapiens with 10 samples.

Results

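The genes described here are 7 members of the aldo-keto reductase (AKR) superfamily, AKR1C1, AKR1C2, AKR1C3, AKR1B1, AKR1B10, AKR1A1 and AKR7A2. They were chosen by name, with earlier results of these data known, and each symbol matched 1 of the 58037 Ensembl gene identifiers in the expression tables. Aldo-keto reductases are cytosolic enzymes that use NADPH to reduce aldehydes and ketones to alcohols. The AKR1C enzymes act on steroids and prostaglandins, the AKR1B enzymes on sugars, retinaldehyde and lipid-derived aldehydes, and AKR1A1 and AKR7A2 on a broad range of small aldehydes. Several of them are well known targets of NRF2, the transcription factor that KEAP1 holds in check, and in lung tumour cells their products are known for clearing reactive carbonyls and for reducing carbonyl-bearing drugs.

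The series compared A549, a human lung adenocarcinoma cell line, with A549/DDP, A549 cells resistant to cisplatin (DDP). Per the paper, A549 was bought from a company, and A549/DDP was a gift from a researcher at another institution. In any difference between the lines, stock and culture history therefore cannot be told apart from resistance. Each line had 2 input RNA libraries, and 2 libraries of RNA pulled down with an antibody against N6-methyladenosine (m6A), the methylation of adenosine in mRNA. The labels gave no drug treatment of any library, at most 10 passages for all, and no statement that replicates came from separate cultures, so p-values measure only the spread between these libraries. For the A549/DDP inputs the cell line field read A549, and the group came from the title and the cell type field. The 4 inputs held 29225501 to 35286514 expected counts. Another pair of A549 inputs, called the second pair here, carried no label naming a separate experiment and held 855034 and 982036, with 75.2% and 73.9% from mitochondrial genes against at most 0.0547% in the other 4, so it stood apart and entered the alternatives only. KRT8 and KRT18, keratins of simple epithelia, were high in both lines (KRT8 at 1452, 3094, 6862 and 6648 CPM, counts scaled to the size of the library), while EPCAM stayed at 1.91 to 5.67 CPM. Of the 10 markers of blood, stromal and endothelial cells, 6 had too few counts to be tested, PTPRC, CD3E and PECAM1 among them, and the other 4 reached at most 17.7 CPM. Of 7 alveolar type 2 and lung lineage markers 5 had too few, SFTPC and NKX2-1 among them. Epithelial markers differed between the lines. KRT8, KRT18 and CDH1 were higher in A549/DDP (3 of 7) and KRT7 was lower, beside 6.85% and 8.00% of all genes. The part of these markers in the values below was not tested. In such bulk libraries fewer expressing cells and less RNA per cell cannot be told apart.

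AKR1C1, AKR1C2 and AKR1C3 lie side by side on chromosome 10 (hg38), at 4963415 to 4983283, 4987775 to 5018000 and 5048781 to 5107686. AKR1C1 and AKR1C3 are read from the plus strand, and AKR1C2 from the minus strand between them. AKR1B1 and AKR1B10 lie near each other on chromosome 7, at 134442350 to 134459239 and 134527567 to 134541412, and AKR1A1 (45550826 to 45570049) and AKR7A2 (19302708 to 19312146) lie on chromosome 1. RefSeq (GRCh38.p14) gave a promoter sequence for 6 of the 7 genes, in 9 windows. The 250 bases before a start of AKR1C1 (chr10:4963165-4963414, plus strand), AKR1C2 (chr10:5003858-5004107, minus strand) and AKR1C3 (chr10:5048531-5048780, plus strand) are shown because these neighbours were of unequal level and changed by unequal amounts. The AKR1C2 start is internal, since the 5′ end of that gene span is at 5018000. Capitals mark bases that had no identical partner when AKR1C1 was aligned to AKR1C2, and when AKR1C2 and AKR1C3 were each aligned to AKR1C1.
AKR1C1: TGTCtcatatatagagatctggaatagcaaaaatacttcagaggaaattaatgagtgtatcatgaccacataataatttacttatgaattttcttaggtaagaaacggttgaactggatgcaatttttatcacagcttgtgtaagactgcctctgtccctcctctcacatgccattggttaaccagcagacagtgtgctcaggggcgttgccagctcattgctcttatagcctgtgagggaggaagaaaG
AKR1C2: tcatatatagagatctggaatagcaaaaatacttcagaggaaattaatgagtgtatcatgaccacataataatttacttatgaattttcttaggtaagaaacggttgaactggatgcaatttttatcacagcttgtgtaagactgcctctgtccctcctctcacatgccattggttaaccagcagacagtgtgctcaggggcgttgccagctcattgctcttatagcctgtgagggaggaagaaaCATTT
AKR1C3: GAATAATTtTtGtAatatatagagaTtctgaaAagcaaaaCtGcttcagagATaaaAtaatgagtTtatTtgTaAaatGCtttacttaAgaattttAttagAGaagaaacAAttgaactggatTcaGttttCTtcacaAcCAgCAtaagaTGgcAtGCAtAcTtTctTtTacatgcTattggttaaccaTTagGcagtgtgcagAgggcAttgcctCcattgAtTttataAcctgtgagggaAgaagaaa
AKR1C1 and AKR1C2 had the same base in 245 of 254 aligned columns (96.5%), with the differences at the ends of the windows. AKR1C1 and this AKR1C3 window had 189 of 261 in common (72.4%), and a second AKR1C3 start 188 of 268 (70.1%). All other pairs of windows from different genes, with at most 1 AKR1C gene in a pair, had 37.0% to 51.7% identity. A CCAAT box, the letters CCAAT on either strand, stood on the reverse strand of all 4 AKR1C windows (as attgg), its first base at -77 in AKR1C1, -81 in AKR1C2, and -73 and -86 in AKR1C3. The boxes of AKR1C1 and AKR1C2 were the same aligned bases. An AKR1B1 window also held a box, on its own strand at -98, as did 32.0% of all 35097 promoter windows of this length on either strand.

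The core of the antioxidant response element, the site bound by NRF2 with small MAF proteins, was searched as TGACNNNGC on both strands, a pattern that can overlap the AP-1 site TGANTCA. AKR7A2 held 2 matches on its own strand and 1 on the reverse, in both of its windows, and the windows of AKR1C1, AKR1C2, AKR1C3, AKR1B1 and AKR1A1 held none. Of all windows, 10.9% held the core and 6.57% the AP-1 site, which no window of these genes held. The window of AKR7A2 (chr1:19312145-19312394, minus strand) is shown with the matches in capitals.
AKR7A2: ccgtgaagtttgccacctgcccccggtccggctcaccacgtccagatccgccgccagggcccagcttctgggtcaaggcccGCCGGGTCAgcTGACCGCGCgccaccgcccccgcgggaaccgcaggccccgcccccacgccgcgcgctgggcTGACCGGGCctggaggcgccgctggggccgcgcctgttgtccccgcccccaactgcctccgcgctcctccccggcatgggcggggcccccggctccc
A match is a run of letters only, and the windows reach no further than 250 bases from a start.

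AKR1C1, AKR1C2, AKR1C3, AKR1B10 and AKR1A1 were higher in A549/DDP than in A549, AKR1B1 was lower without passing the test, and AKR7A2 did not pass. By the quasi-likelihood test of edgeR, with p-values adjusted after Benjamini and Hochberg over all 16406 genes tested, 5 of the 7 were higher at an adjusted p under 0.05 and 0 lower, beside 6.85% of all genes higher and 8.00% lower. Without adjustment 6 of 7 passed, beside 32.7% of all genes. The median log2 fold change of the 7 was 1.52, beside 0.00 for all genes. The 7 genes were chosen with earlier results of these data known, so these counts are no independent evidence of a direction. With the 4 A549 inputs of both pairs set against A549/DDP, 2 of the 7 passed, AKR1C1 and AKR1C3, while all genes called went from 1124 higher and 1313 lower to 335 and 342.

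**Figure D1:**
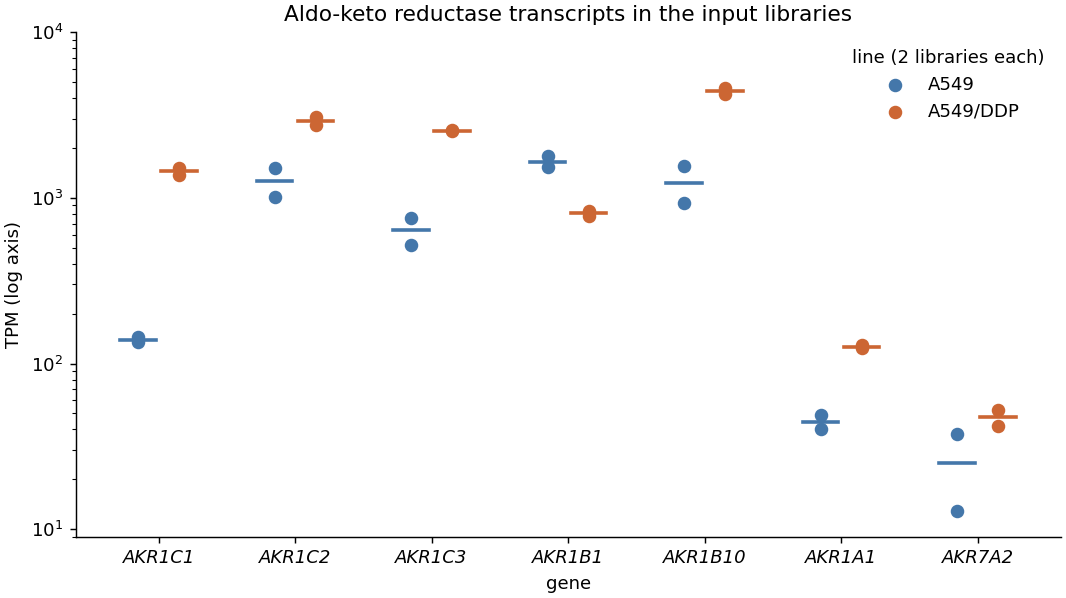
TPM of the 7 genes in the 2 A549 and the 2 A549/DDP input libraries on a log axis, 1 point per library, with a bar at the mean of each line. All but AKR1B1 sat higher in both A549/DDP libraries than in either A549 library, and AKR1B1 sat lower.

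AKR1C1, which inactivates progesterone, moved furthest. Its CPM was 105 and 113 in the A549 libraries and 1043 and 969 in the A549/DDP libraries. The A549/DDP libraries lay far above both A549 libraries, and the replicates of each line lay close together. The mean went from 109 ± 5.65 to 1006 ± 52.1 (SD, n = 2), a 9.26-fold difference (log2 fold change 3.21, SE 0.161, adjusted p = 0.00156 in edgeR's test). It passed under 14 of 14 alternatives, which changed the tool, scaling, filter or libraries, with log2 fold changes of 3.14 to 3.92 and a highest adjusted p of 0.00505, with both A549 pairs. The 3.92 came from the fit against the second A549 pair, where AKR1C1 had 5.26 and 11.3 counts and the median of all genes was 0.80. By mean TPM, a measure per transcript length, AKR1C1 moved from rank 1376 to rank 89 among the genes tested.

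AKR1C2, which reduces dihydrotestosterone, was already abundant in A549. Its CPM was 766 and 944 in A549 and 2111 and 2245 in A549/DDP. No A549 library reached the A549/DDP range. The log2 fold change was 1.35 (SE 0.165, adjusted p = 0.00687 in edgeR's test), and 1 of 14 alternatives did not pass, that with both A549 pairs (1.61, adjusted p = 0.0677). AKR1C3, which reduces androstenedione to testosterone and makes prostaglandin F, stood between its neighbours in size of change. Its CPM was 349 and 452 in A549 and 1601 and 1629.8 in A549/DDP, again without overlap. The log2 fold change was 2.01 (SE 0.18, adjusted p = 0.00337), and the highest adjusted p over 14 alternatives was 0.0351.

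Reads of these paralogs can be shared. The expected counts of AKR1C1, AKR1C2 and AKR1C3 were not whole numbers in any of the 4 inputs, as arises when the counter divides reads among genes, so their separate values are uncertain. AKR1B10 was the same, with its near copy AKR1B15, whereas AKR1B1, AKR1A1 and AKR7A2 had whole counts in all 4. With AKR1C1, AKR1C2 and AKR1C3 summed, CPM was 1220 and 1508 in A549 and 4756 and 4844 in A549/DDP, a log2 fold change of 1.82 (SE 0.162, adjusted p = 0.00336 in edgeR's test). With both A549 pairs the sum was 1.99 higher, with an adjusted p of 0.0566.

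The make-up of the AKR1C transcripts also differed, with AKR1C1 taking a larger part of them in A549/DDP. AKR1C1 was 8.06% and 5.99% of the summed TPM of the 3 genes in A549 and 22.4% and 19.6% in A549/DDP. The mean was 7.03% ± 1.46 against 21.0% ± 1.98 (SD, n = 2), and an exact two-sided permutation test gave p = 0.333, the smallest that 2 against 2 libraries allow. AKR1C2 went from 60.7% and 62.6% to 40.6% and 43.9%, and AKR1C3 from 31.3% and 31.4% to 37.1% and 36.5%. In none of the 3 genes did the shares of the lines overlap. In the second A549 pair AKR1C1 was 2.98% and 5.05%, so all 4 A549 libraries were below both A549/DDP libraries, but its counts there were only 5.26 and 11.3. AKR1C1 stood at 0.133 and 0.0958 of the TPM of AKR1C2 in A549 and at 0.551 and 0.445 in A549/DDP.

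**Figure D2:**
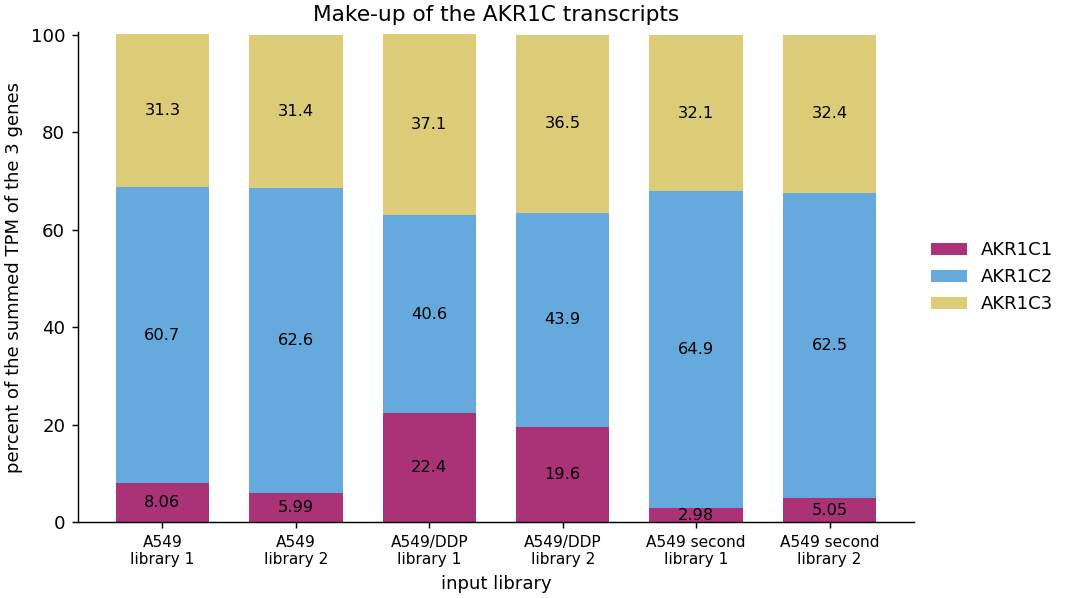
Share of AKR1C1, AKR1C2 and AKR1C3 in their summed TPM (percent) in each of the 6 input libraries, bars stacked from AKR1C1 at the bottom. The AKR1C1 share was 19.6% and 22.4% in A549/DDP and at most 8.06% in the 4 A549 libraries.

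The AKR1B pair had fold changes of opposite sign. AKR1B10, which reduces retinaldehyde and lipid aldehydes, had a CPM of 903 and 1326 in A549 and 4249 and 3868 in A549/DDP, and the A549 replicates differed more from each other than those of A549/DDP in proportion to their mean. The log2 fold change was 1.86 (SE 0.216, adjusted p = 0.00590 in edgeR's test). It did not pass with both A549 pairs (1.55, adjusted p = 0.0901). Summed with AKR1B15, a sum added after the data were seen, it was 1.87 higher (SE 0.214, adjusted p = 0.00577).

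AKR1B1, the aldose reductase that turns glucose into sorbitol, had a CPM of 1163 and 865 in A549 and 641 and 592 in A549/DDP. Both A549/DDP libraries lay below both A549 libraries, but the A549 pair was spread. The log2 fold change was -0.72 (SE 0.189), and it did not pass edgeR's test (adjusted p = 0.0545). It passed under 8 of 14 alternatives, among them DESeq2 (adjusted p = 0.000841) and limma on log2(TPM + 1) (-1.03, adjusted p = 0.0153). Of the 8, 2 were edgeR fits with a single A549 library, -0.50 without replicate 1 and -0.93 without replicate 2, in which that library is assumed to vary like the closer A549/DDP pair, so the spread between the A549 libraries did not enter. With both A549 libraries and a single A549/DDP library it did not pass (adjusted p = 0.149 without A549/DDP replicate 1 and 0.219 without 2). Against the second A549 pair the sign turned, to 0.42 (adjusted p = 0.123), with the median of all genes at 0.80 in that fit. Its effective length, the part of the transcripts open to fragments as RSEM weighted its isoforms, was 944 and 930 bases in A549 and 1181 and 1179 in A549/DDP, so its TPM differed more than its CPM, with 1782 and 1533 against 836 and 779. The effective length of AKR1B10 lay between 1411 and 1427 in all 4. The TPM of AKR1B10 was 0.519 and 1.01 times that of AKR1B1 in A549, and 5.49 and 5.41 times in A549/DDP, with no overlap.

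AKR1A1, the aldehyde reductase found in most tissues, was at a far lower level. Its CPM was 26.0 and 18.1 in A549 and 73.0 and 53.3 in A549/DDP, and the ranges did not overlap. The log2 fold change was 1.52 (SE 0.30, adjusted p = 0.0247 in edgeR's test). It did not pass without A549/DDP replicate 1 (1.25, adjusted p = 0.0700), with both A549 pairs (1.34, adjusted p = 0.0999) or with the second pair (1.11, adjusted p = 0.162). AKR7A2, which reduces succinic semialdehyde and the dialdehyde of aflatoxin, had a CPM of 8.88 and 18.6 in A549 and 28.6 and 25.2 in A549/DDP. The A549/DDP libraries were the higher, but the A549 replicates differed by more than the gap between the lines at its narrowest, and the log2 fold change of 0.97 (SE 0.437) had an adjusted p of 0.187. It was 0.52 without A549 replicate 1 (adjusted p = 0.636) and 1.58 without A549 replicate 2 (adjusted p = 0.030), each time with the spread taken from the A549/DDP pair alone. In the second A549 pair AKR7A2 had 0 counts in both libraries, and set against a floor of 3 counts over that pair, with mitochondrial genes left out of the totals, A549/DDP was at least 4.26-fold higher.

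**Figure D3:**
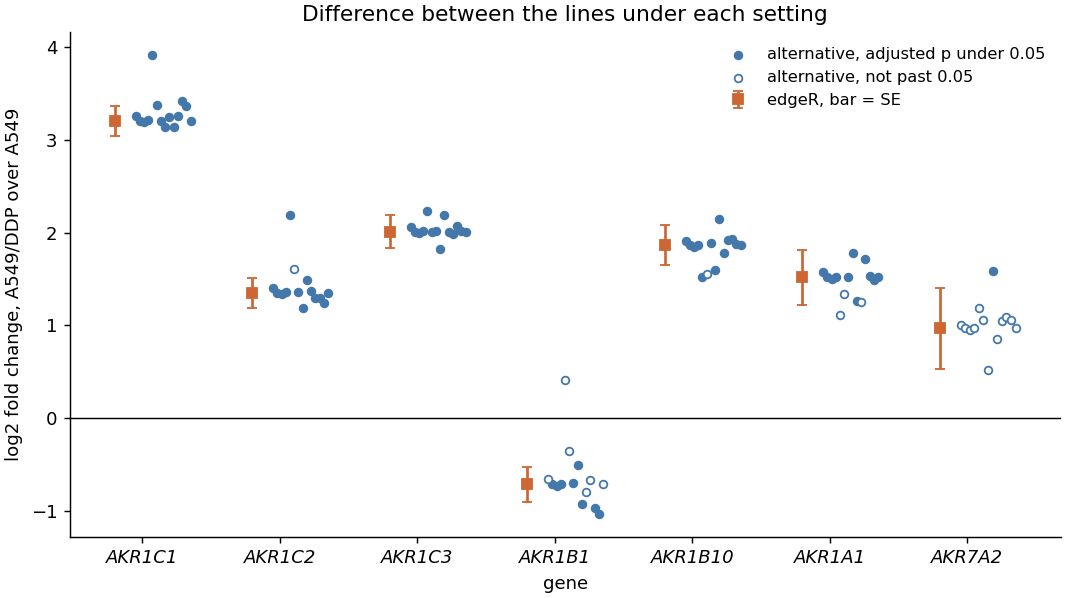
Log2 fold change of A549/DDP over A549 for each gene. Squares give the edgeR value with its SE, and circles each alternative, filled where the adjusted p was under 0.05. The value of AKR7A2 against the second A549 pair is left out, since that pair had 0 counts. AKR1C1 and AKR1C3 were filled throughout, and AKR1B1 had values on both sides of 0.

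Per transcript length, the order of the genes differed between the lines. In A549 it ran from AKR1B1 (TPM 1782 and 1533) through AKR1C2 (1011 and 1509.7), AKR1B10 (926 and 1547), AKR1C3 (521 and 759), AKR1C1 (134 and 145) and AKR1A1 (48.9 and 40.2) to AKR7A2 (12.9 and 37.3). AKR1C2 and AKR1B10 overlapped, as did AKR1B10 and AKR1B1, and the other neighbours did not. In A549/DDP it ran from AKR1B10 (4586 and 4210.5) through AKR1C2 (2759 and 3083), AKR1C3 (2521 and 2566), AKR1C1 (1521 and 1373), AKR1B1 (836 and 779) and AKR1A1 (128 and 124) to AKR7A2 (52.4 and 42.1), with no overlap between neighbours. By mean TPM, AKR1B1 led the order in A549 and stood below AKR1B10 and the AKR1C genes in A549/DDP. The 7 genes together made up 0.444% and 0.557% of all TPM in A549 and 1.24% and 1.22% in A549/DDP, and AKR1B10 alone was 37.0% and 34.6% of their sum in A549/DDP against 20.9% and 27.8% in A549. By rank among the 16406 genes tested, AKR1B10 went from 100 to 13, AKR1C2 from 95 to 25 and AKR1C3 from 239 to 32, while AKR1B1 went from 56 to 171.

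In the second A549 pair all 7 had lower TPM than in the first. With mitochondrial genes left out of the sum, AKR1B10 was at 282 and 382 TPM, AKR1B1 at 134 and 161, AKR1C2 at 94.3 and 149, AKR1C3 at 46.7 and 77.0, AKR1C1 at 4.33 and 12 and AKR1A1 at 25.9 and 4.34. These remained below the first pair for each gene, and AKR1B10 led in both libraries. In the first pair AKR1B1 led by mean TPM, but in replicate 2 AKR1B10 was above it (1547 against 1533). The totals outside mitochondrial genes were 211799 and 256064 counts, so AKR1A1 rested on 5 and 2 counts there.

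Of the 10 other AKR genes looked at, 7 had enough counts to be tested. Of these, 1 was higher and 1 lower, beside 6.85% and 8.00% of all genes. AKR1B15, the near copy of AKR1B10, had a CPM of 22.2 and 21.8 in A549 and 126 and 71.0 in A549/DDP (log2 fold change 2.16, SE 0.319, adjusted p = 0.0109 in edgeR's test), and did not pass with both A549 pairs (adjusted p = 0.0509). KCNAB2, a beta subunit of voltage-gated potassium channels that carries the aldo-keto reductase fold, had 30.6 and 33.4 in A549 and 4.25 and 1.2 in A549/DDP (-3.56, SE 0.654, adjusted p = 0.0202). It did not pass with both A549 pairs (adjusted p = 0.0704) or with the second pair alone (0.443). In the second pair it had 0 counts in both libraries, against 126 and 42 in A549/DDP, so the sign turned there. AKR1C4, the liver member of the AKR1C group, had 0.334 and 0 CPM in A549 and 2.50 and 4.59 in A549/DDP (adjusted p = 0.211). AKR7L had 0 counts in both A549 libraries and 34 and 37 in A549/DDP, at least 26.2-fold higher against a floor of 3 counts over the A549 pair. Its adjusted p was 0.0962 in edgeR and 0.0478 in DESeq2. AKR1E2 (adjusted p = 0.671), AKR1D1, the steroid double-bond reductase (0.813), and KCNAB3 (0.856) did not pass, and AKR1C8, AKR7A3 and KCNAB1 were too low to be tested, with at most 42, 5 and 12 counts in any library. The median log2 fold change of the 7 tested was 0.48.

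Other enzymes that reduce or oxidise carbonyls were divided. Of 22 listed, 21 were tested, 5 were higher and 1 lower, beside 6.85% and 8.00% of all genes. Their median log2 fold change was 0.32. ALDH2, the mitochondrial aldehyde dehydrogenase, had 80.2 and 76.7 CPM in A549 and 333 and 304 in A549/DDP (2.02, SE 0.165, adjusted p = 0.00294 in edgeR's test). PTGR1, which reduces leukotrienes, prostaglandins and unsaturated aldehydes, had 274 and 262 against 661 and 715 (1.36, SE 0.151, adjusted p = 0.00540), and did not pass with both A549 pairs (adjusted p = 0.232). DHRS2, a short-chain dicarbonyl reductase, went the other way, from 53.4 and 20.7 to 0.641 and 3.55 (-4.13, SE 0.906, adjusted p = 0.0332), and did not pass against the second pair (adjusted p = 0.0518). With both A549 pairs 2 of the list passed.

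More of the NRF2 target genes outside the AKR family were higher in A549/DDP than lower. Of 26 listed and tested, 14 were higher and 1 lower, beside 6.85% and 8.00% of all genes, with a median of 0.77. GPX2, a glutathione peroxidase, had 15.8 and 32.5 CPM in A549 and 329 and 328 in A549/DDP (3.76, SE 0.367, adjusted p = 0.00392 in edgeR's test). HMOX1, heme oxygenase, had 27.1 and 21.3 against 142 and 132 (2.50, SE 0.216, adjusted p = 0.00314). PGD, a source of the NADPH that the reductases use, had 454 and 920.1 against 2676 and 2625 (1.95, SE 0.329, adjusted p = 0.0159), and did not pass with both A549 pairs (adjusted p = 0.0589). The gene that passed in the other direction was TXNRD1, thioredoxin reductase, named after its value was seen (-0.55, adjusted p = 0.0483). It did not pass without A549/DDP replicate 1 or 2, in limma (adjusted p = 0.0683 on FPKM and 0.0560 on TPM), with upper-quartile scaling (0.0589) or without a filter (0.0770). TXNRD1 also did not pass with both A549 pairs (0.715) or with the second pair. There its sign turned (0.12, adjusted p = 0.585), with the median of all genes at 0.80 in that fit. The count of 15 called was 8 without A549/DDP replicate 1, 9 without A549/DDP replicate 2 and 3 with both A549 pairs.

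The RNAs of the regulators did not all follow. Of 9 genes that control NRF2 or pair with it, 1 was higher and 3 lower, beside 6.85% and 8.00% of all genes. Their median was -0.40. NFE2L2, which encodes NRF2, had 235 and 206 CPM in A549 and 95.4 and 106 in A549/DDP (-1.13, SE 0.174, adjusted p = 0.0122 in edgeR's test), and did not pass without A549/DDP replicate 1 (adjusted p = 0.0677) or with both A549 pairs (0.0921). KEAP1, its inhibitor, had 41.9 and 54.5 against 129 and 116 (1.34, SE 0.214, adjusted p = 0.0136), and did not pass with both A549 pairs (adjusted p = 0.140) or in limma (0.112 on FPKM and 0.148 on TPM). MAFF, a small MAF partner, had 179 and 105 against 1.96 and 2.47 (-6.00, SE 0.376, adjusted p = 0.00168), and MAFK had 570.3 and 601 against 374 and 363 (-0.67, SE 0.146, adjusted p = 0.0324). MAFK did not pass under 6 alternatives, among them without A549/DDP replicate 1 or 2 and against the second pair. There its sign turned (0.34, adjusted p = 0.342), with the median of all genes at 0.80 in that fit. Of the list, 2 passed without A549/DDP replicate 1 and 1 with both A549 pairs.

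Enzymes of steroid and prostaglandin metabolism, the neighbours of AKR1C1 to AKR1C3 in those pathways, held 1 gene that passed. Of 29 listed, 19 were tested, 1 was higher and 0 lower, beside 6.85% and 8.00% of all genes, and 6 passed without adjustment, beside 32.7%. Their median was 0.39. HSD17B4, a peroxisomal enzyme of fatty acid and estradiol oxidation, had 51.6 and 63.4 CPM in A549 and 125 and 134 in A549/DDP (1.17, SE 0.197, adjusted p = 0.0157 in edgeR's test). It did not pass with the second pair (adjusted p = 0.287), both pairs (0.306) or without A549/DDP replicate 2 (0.0541). DESeq2 called 3 of the list, and edgeR called 3 without A549/DDP replicate 1 and 4 without A549 replicate 2. All these lists were written with earlier results of these data known, so their counts are no independent evidence of a direction.

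The 5 genes whose pattern was closest to that of AKR1C1 were LHX8, FGA, LPCAT1, PDK4 and F2, among 11347 genes with a mean of at least 5 CPM. Likeness was the root mean square difference between log2 CPM values centred per gene over the 4 inputs, and came to 0.0312, 0.0696, 0.0990, 0.103 and 0.108. LHX8, a homeobox factor, had 5.08 and 5.64 CPM in A549 and 54.0 and 49.9 in A549/DDP. FGA, the fibrinogen alpha chain, had 32.1 and 33.0 against 350 and 304. None of the 5 is an aldo-keto reductase, and with 4 libraries in 2 groups the measure mostly reflects the difference between the lines.

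m6A peaks were deposited as a list for each antibody library, with a p but no fold or depth, and whether that p was adjusted is not stated in the sources used here. The lists held 26320 and 14576 peaks for A549 and 27244 and 10661 for A549/DDP, and 43.7%, 30.6%, 40.7% and 22.2% of the genes tested for expression had a peak in them. Of the 7 reductases, 2 and 3 had a peak in the A549 libraries and 5 and 4 in the A549/DDP libraries. The 40 peaks on these genes lay within their RefSeq spans, 18 of them joined 2 or more exon blocks, and they merged into 23 regions when peaks with at least 1 shared base were joined. Of the 23, 17 came from a single library and 2 from all 4, both on AKR1C2. By gene, AKR1C2 alone of the 7 had a peak in all 4 libraries, beside 13.9% of all genes tested, wherever in the gene it lay. Regions were not merged for other genes, so the counts of regions have no such share beside them.

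AKR1C2 was the gene with peaks throughout, with 2 and 3 in A549 and 7 and 3 in A549/DDP. The regions found in all 4 libraries ran from 4989736 to 4998658, toward the 3′ end, and from 5003766 to 5013395, with introns between the blocks. Within them, 4990034 to 4990038 (5 bases), 4991831 to 4991913 (83 bases), 4995319 to 4995330 (12 bases) and 5010344 to 5010493 (150 bases) were covered by blocks in all 4 libraries. At the start whose window is printed above, the blocks of A549 replicate 1 (5003866 to 5004023), A549 replicate 2 (5003916 to 5004015) and A549/DDP replicate 1 (5003965 to 5004023) had 51 bases in common, chr10:5003965-5004015, and the block of A549/DDP replicate 2 (5003766 to 5003965) shared 1 of them. The first 3 blocks lie before this RefSeq start and that of A549/DDP replicate 2 spans it, all within the gene, which reaches to 5018000. The block of A549 replicate 1 is shown 5′ to 3′ on the minus strand, with the bases common to the 3 libraries in capitals.
AKR1C2 block: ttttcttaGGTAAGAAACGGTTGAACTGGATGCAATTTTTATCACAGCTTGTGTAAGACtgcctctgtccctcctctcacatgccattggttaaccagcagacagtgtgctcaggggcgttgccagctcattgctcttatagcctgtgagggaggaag
The same 51 bases stand in the AKR1C1 window printed above, and in no other promoter window of the table, where they lie before the AKR1C1 start. Whether reads from them could be placed on either gene was not tested.

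AKR1C1 had 4 peaks in A549/DDP replicate 1 and none in A549/DDP replicate 2 or in A549. The 4 lay toward its 3′ end, at 77.6% to 97.9% of the gene span, with p of 0.0024 to 0.0091 as deposited. AKR1C3 had its 3 peaks in A549/DDP replicate 1, near its internal start, between 5094466 and 5098033, each with 1.3e-06 as its deposited p. AKR1B10 had 1 peak, in A549/DDP replicate 2, at 1.62% of its span from the 5′ end, although its input TPM was the highest of the 7 in A549/DDP.

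AKR1A1 had 3 and 2 peaks in A549 and 4 in A549/DDP replicate 1, with none in A549/DDP replicate 2. A peak at its 5′ end was called in the 3 libraries that had any, with p of 2.2e-07, 0.0026 and 3.9e-08 as deposited. The other AKR1A1 peaks of each library carried the same p as its 5′ peak. The TPM of AKR1A1 was at most 128. AKR1B1 had 2 in A549 replicate 2, and 1 and 4 in A549/DDP, where 134449138 to 134449237 was covered in both A549/DDP libraries and in neither A549 library. AKR7A2 had 1 peak, in A549/DDP replicate 2. Over both libraries of a line, 3 of the 7 had a peak in A549, beside 47.3% of all genes tested, and 7 of 7 in A549/DDP, beside 43.4%. In each A549 library 2 had a peak, AKR1A1 and AKR1C2, beside 27.1%, and in each A549/DDP library 2, AKR1B1 and AKR1C2, beside 19.5%. At a p of 1e-05 or less, 1 of 7 had a peak in A549, beside 28.2% of all genes, and 2 in A549/DDP, beside 28.6%. At that p, 0 of 7 had a peak in each library of a line, beside 6.42% in A549 and 5.92% in A549/DDP. Without A549/DDP replicate 1, 4 of 7 had a peak in A549/DDP. Genes whose peaks were seen only in A549/DDP, AKR1C1, AKR1C3, AKR1B10 and AKR7A2, also had more input RNA there by TPM, and the part of RNA level and of list size in these calls was not tested.

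**Figure D4:**
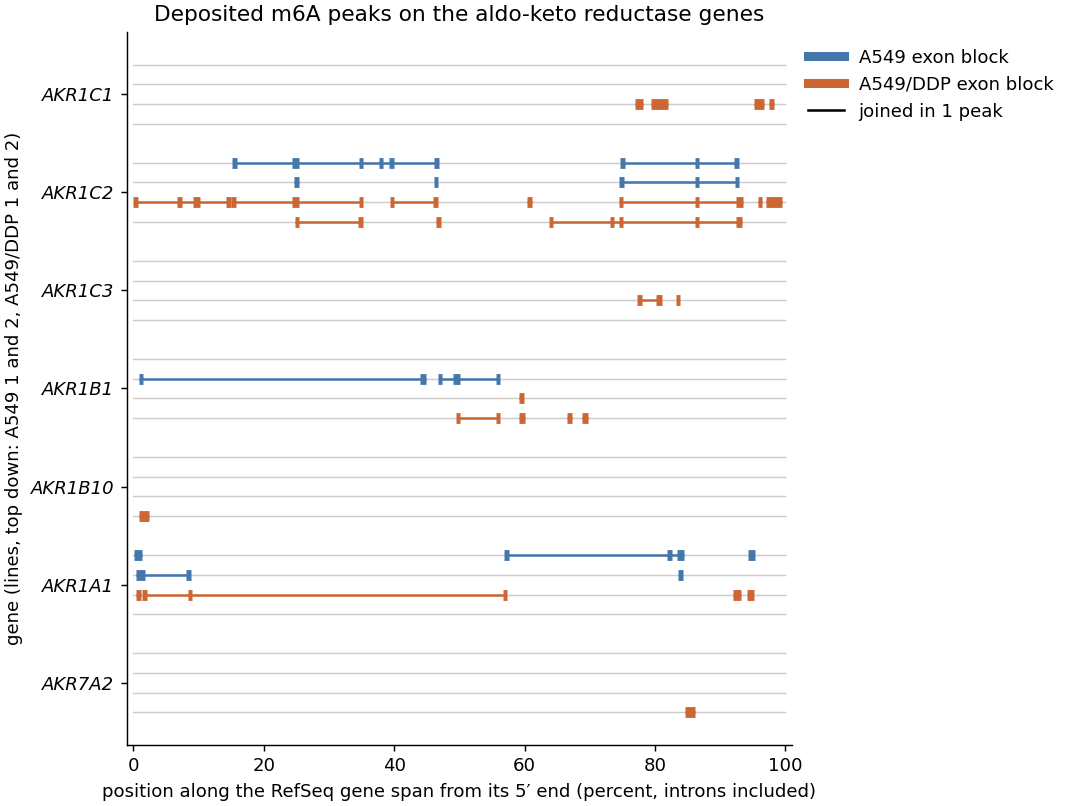
m6A peaks on the 7 genes by position along the RefSeq span from the 5′ end (percent, introns included), with 4 lines per gene, from the top A549 replicates 1 and 2 and A549/DDP replicates 1 and 2. Thick marks are exon blocks, drawn at least 0.7% wide, and thin lines join the blocks of a peak. AKR1C2 is marked in all 4 libraries, and AKR1C1 and AKR1C3 in A549/DDP replicate 1 alone.

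Among the other AKR genes, AKR1B15 had 2 peaks in A549 replicate 1 and 3 in A549/DDP replicate 1, and 2 of the 3 overlapped those of A549. AKR1E2 had 3 and KCNAB2 had 7 peaks, all in A549 replicate 1, and the other 7 genes of that list had none.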

How the data were processed

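Per the labels, poly(A) RNA was sequenced as stranded paired-end libraries, with STAR, RSEM, bedtools and hg38 named and no versions given. The authors deposited RSEM tables with expected counts, TPM and FPKM for 6 input libraries, and 1 peak list with a p-value per peak for each of 4 m6A-seq libraries. The peak caller is not given in the sources used here. Expected counts were rounded and tested with edgeR 4.0.16 (R 4.3.3) on 2 A549 and 2 A549/DDP inputs, with filterByExpr, TMM and a quasi-likelihood F test, and adjusted over 16406 genes. SE is the log2 fold change divided by the root of F. CPM uses TMM-scaled totals. Alternatives used DESeq2 1.42.0, limma 3.58.1 on log2(TPM + 1) or log2(FPKM + 1), other scaling, filters and samples. Scripts were tested on simulated data. Genes were named from the members, the other AKR genes, the 3 largest passing changes of each further list with a mean of at least 5 CPM, NFE2L2 and KEAP1, and the 5 genes nearest AKR1C1. Members and lists were chosen with earlier results of these data known. Of 58037 identifiers, 56948 matched a symbol. Chi-square per degree of freedom was 89.6 between the A549 inputs, 54.9 between the A549/DDP inputs and 3.28 in the second pair, so the inputs of a pair were not copies of each other. Libraries of different groups, and the m6A-seq libraries, were not compared in this way. Promoters were aligned with Biopython 1.88. Counts limit precision for counting error only.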

Additional observations from a re-analysis of the deposited data

How the results depend on the processing

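Of 229 values recomputed under alternatives, 184 kept their direction and their side of the threshold or their size. Adjusted p-values ran from 1.11e-102 to 0.722 over the 7 genes. With both A549 pairs, 2 of the 7 genes passed, 0 other AKR genes, 2 other carbonyl-reducing enzymes, 3 NRF2 targets, 1 control gene and 0 steroid and prostaglandin enzymes, and the log2 fold changes that no longer passed were 1.61 for AKR1C2, 1.55 for AKR1B10, 1.34 for AKR1A1, 1.99 for the AKR1C sum and 1.58 for AKR1B10 with AKR1B15. Against the second pair, AKR1B1 reversed to 0.42, with the median of all genes at 0.80 in that fit, and AKR1A1 no longer passed at 1.11. AKR7A2 was there at 11.77 against 0 counts, a value set by the prior count. In the same fit 1 other AKR gene and 3 steroid and prostaglandin enzymes passed. With that pair the AKR1C1 share differed by 16.9 percentage points in place of 13.9. AKR1B1 newly passed at -0.71 with DESeq2, -0.73 without a filter, -0.71 with at least 10 counts in every library, -0.97 in limma on FPKM and -1.03 on TPM. The numbers of the replicates did not pair the libraries (correlation of deviations 0.0259), and with the replicate block AKR1B1 was at -0.70 and passed, and 2 steroid and prostaglandin enzymes passed. Steroid and prostaglandin enzymes numbered 3 with DESeq2, without a filter and with 10 counts, and 2 in limma, where control genes numbered 2. Leaving out 1 library at a time, with the lone library of its line assumed to vary like the other pair, gave log2 fold changes of -0.93 to -0.50 for AKR1B1, 1.25 to 1.79 for AKR1A1 and 0.52 to 1.58 for AKR7A2, and counts of 8 to 21 NRF2 targets, 2 to 5 control genes and 1 to 4 steroid and prostaglandin enzymes. Over all genes, calls higher and lower numbered 1124 and 1313 in edgeR, 1273 and 1262 with upper-quartile scaling, 1987 and 2247 in DESeq2, 1836 and 2174 without a filter, 1633 and 1903 with the replicate block, 1746 and 1868 with 10 counts, 827 and 805 in limma on FPKM, 665 and 827 on TPM, 2371 and 1387 against the second pair, 335 and 342 with both pairs, and 788 to 1731 and 1164 to 2078 without 1 library. At a peak p of 1e-05 or less, members with a peak numbered 1 in A549 and 2 in A549/DDP, and regions 7. Without 1 peak list, members with a peak in A549/DDP numbered 4 to 5. The causes were not tested. No peak under another gene name overlapped the members. The second pair held 211799 and 256064 counts outside mitochondrial genes.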
